A study of Rattus norvegicus with 6 samples.

Results

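The subcommissural organ was compared with the ordinary ependyma of the third ventricle, to show which genes set a gland-like stretch of ependyma apart from the lining around it. The subcommissural organ is a strip of columnar ependyma below the posterior commissure that secretes glycoproteins into the cerebrospinal fluid, where they form a thread known as Reissner's fiber. Ordinary ependyma is a sheet of ciliated cells joined by gap junctions that lines the ventricles and moves the fluid over its surface. Secretory cells fold, glycosylate and export their products through the endoplasmic reticulum and the Golgi apparatus, and the unfolded protein response adjusts the amount of that machinery. The comparison used 2 of the 6 one-colour microarrays of the series, chosen by tissue label, with 1 array on each side. Each of these arrays carried RNA pooled from 2 sources, and the labels do not say what was pooled. The other arrays carried the subfornical organ, total brain as the reference pool, and the pineal gland with 2 arrays.

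All samples came from adult male Sprague-Dawley rats, which the labels call normal, with no treatment or altered gene named for any group. The tissue was cut out with a laser under the microscope, and per the labels the ependyma came from a stretch of wall some way off both the subcommissural and the subfornical organ. Only 3 ng of RNA entered 2 rounds of amplification. Every array carries the RNA of all cells in the cut piece, so fewer cells of a type and less RNA per cell cannot be told apart.

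The table held 1 intensity for each of 35129 probes and array, on a linear scale with a median of 1.05 to 1.06 on both arrays. Of these probes 16865 had exactly 1 gene symbol, and they stood for 12167 genes. A gene counted as measured when the higher of its 2 intensities reached 1.05, the pooled median of the 6 arrays, which left 8887 genes. With 1 array a side there was no replicate and no test was made, so differences are given by size alone, and a gene was counted when its arrays were at least 4-fold apart. Where the lower intensity was under 1.05, the fold was computed against 1.05 and is written as "at least".

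Of the 8887 measured genes, 436 (4.91%) were at least 4-fold higher in the subcommissural organ and 698 (7.85%) at least 4-fold lower, 12.8% in all. With every intensity under 1.05 raised to it, 258 (2.90%) were higher and 435 (4.89%) lower. The median log2 difference, subcommissural organ minus ependyma, was 0.06 and its standard deviation over genes 1.36. As that median lies just above 0, more of all measured genes lay above 0 than below it. Their exact share was not counted, so list counts above or below 0 have only this median beside them. The 2 pineal gland arrays are the nearest measure of spread at hand, although they are another tissue. Of 8555 genes measured in them, 245 (2.86%) were 4-fold apart, with a standard deviation of 0.77. The median log2 difference of the pineal gland arrays, array 1 minus array 2, was 0.43, so 2 arrays of one tissue were shifted too. Among genes with a mean above the pooled 75th percentile, 6.65% were 4-fold apart between subcommissural organ and ependyma against 0.239% between the pineal gland arrays. Under the pooled median the shares were 42.3% and 28.9%, so a difference in a dim gene says little here. Of the 1134 counted genes, 146 had another measured probe. In 67 of these another probe was also 4-fold apart the same way, and in 23 a probe lay on the opposite side. At the border of the count, Hdac2 was just outside with a log2 difference of 1.9988 and C1qc just inside at -2.001.

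The marker genes of this comparison were chosen with its values known, so their levels describe the arrays and are no check of the labels. Cuzd1, a zona pellucida domain protein of secretory epithelia, stood at 116 in the subcommissural organ and 0.412 in the ependyma, at least 111-fold higher. Its other arrays were between 0.204 and 0.397, so 1 array of the 6 carried it. Lcn2, the siderophore-binding protein lipocalin 2, stood at 124 and 1.15, 108-fold higher. It was also present in the subfornical organ at 32.4 and in the pineal gland at 14.9 and 14.3. Ftcd, the folate-dependent enzyme that ends histidine breakdown, stood at 164 and 2.26, 72.8-fold higher. On the remaining arrays Ftcd was between 0.118 and 6.25. Gja1, the gap junction protein connexin 43, went the other way at 16.5 and 215, 13.0-fold lower in the subcommissural organ. A second probe for Gja1 read 9.06 and 134, again lower. Sspo, which encodes the main glycoprotein of Reissner's fiber, was not analysed here.

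**Figure D1:**
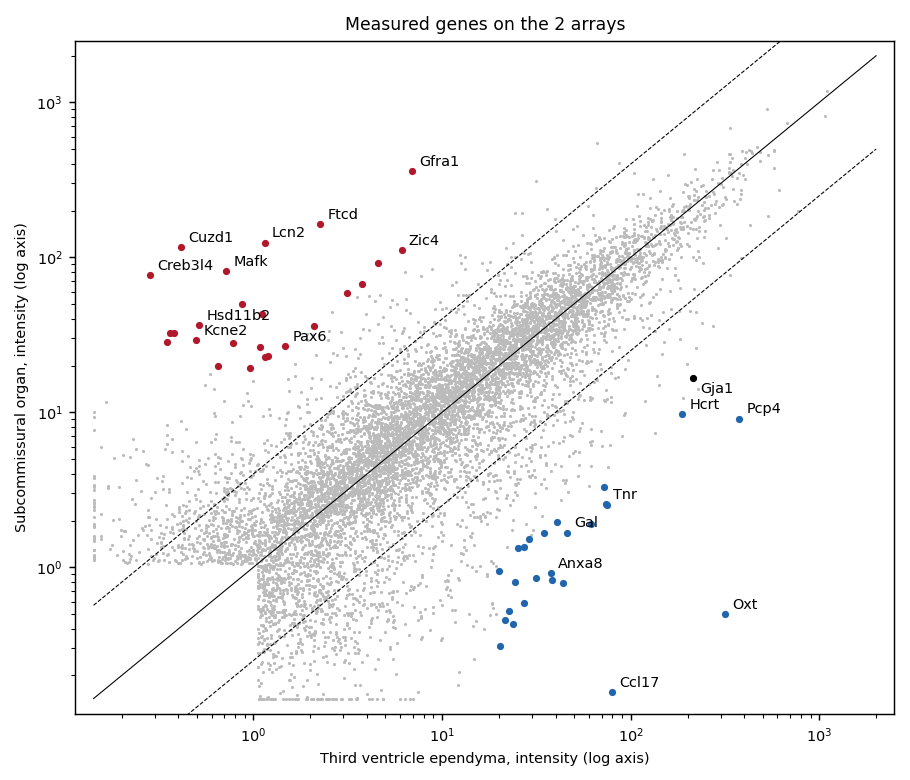
Intensity of 8887 measured genes in the ependyma (horizontal, log axis) and the subcommissural organ (vertical, log axis). The solid line marks equal values and the dashed lines 4-fold; red and blue points are the 25 highest and 25 lowest differences, and values under 0.142 are drawn at it. Cuzd1, Creb3l4 and Mafk lie under 1.05 on the ependyma axis, and Oxt stands at 317 there against 0.496.

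The list of secreted proteins was written with earlier results known and holds the markers Cuzd1 and Lcn2, so its counts only describe it. In it, 6 of 22 measured genes were at least 4-fold higher in the subcommissural organ, where 4.91% of all genes were. Lower were 2, and the median log2 difference was 0.48. With values under 1.05 raised to it, 5 were higher and 2 lower. The list summed to less in the subcommissural organ, at 1502 against 2044 in the ependyma. Besides Cuzd1 and Lcn2, the higher genes included members of the whey acidic protein family. Wfdc2 stood at 49.6 and 0.869, at least 47.2-fold higher. Wfdc1 stood at 194 and 26.5, 7.29-fold higher, with total brain at 101. Other members were higher in the ependyma. Sparc, a matrix glycoprotein that binds collagen, stood at 15.1 and 141, 9.32-fold lower in the subcommissural organ, and its relative Sparcl1 at 199.6 and 767, 3.84-fold lower. Apoe, the lipid carrier made by glia, stood at 44.4 and 223, 5.03-fold lower. Gpha2, which encodes a subunit of the glycoprotein hormone thyrostimulin and was on no list, stood at 32.5 and 0.361, at least 31.0-fold higher. It was between 3.30 and 13.8 on the other arrays.

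From the list of secretory regulators, Creb3l4 and Mafk were among the leading genes. Creb3l4, a membrane-bound factor of the endoplasmic reticulum that is released by cleavage, stood at 76.5 in the subcommissural organ and 0.282 in the ependyma, at least 72.8-fold higher. The other arrays were between 0.0806 and 0.515. Mafk, a small Maf protein that pairs with cap'n'collar factors, stood at 81.6 and 0.716, at least 77.6-fold higher, with all other arrays under 1.05. Creb3l2, a relative of Creb3l4, stood at 3.23 and 0.863, at least 3.07-fold higher, and Eif2ak3, the stress kinase PERK, at 32.0 and 11.9, 2.69-fold higher. The stress sensor Atf6 was nearly level on the probe used. It read 33.9 and 32.3, while another of its probes read 0.434 and 1.65, on the opposite side. Atf4, a factor made when translation is slowed by such kinases, stood at 62.1 and 33.9, 1.83-fold higher. Of the 14 measured regulators, 11 lay above 0 with a median of 0.78. The 3 below 0 were Bhlha15 at 2.60 and 3.27, Ddit3 at 26.0 and 26.6, and Foxa2 at 0.240 and 1.53. In the list 3 were 4-fold higher and 1 lower, against 4.91% and 7.85% of all genes. With values under 1.05 raised to it, these counts were 2 and 0.

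The machinery of protein folding and export was higher by a small amount in most members. Of 20 measured chaperones and folding enzymes of the endoplasmic reticulum, 18 lay above 0 with a median log2 difference of 0.79, against 0.06 over all genes. None was 4-fold higher. Summed over the list, the intensity was 853 in the subcommissural organ and 540 in the ependyma. The 2 pineal gland arrays, which are one tissue, also differed, at 501 and 327. Hspa5, the master chaperone BiP, stood at 26.0 and 9.28, 2.80-fold higher. Sdf2l1, which works with BiP, stood at 67.4 and 19.9, 3.38-fold higher. Creld2, a disulfide isomerase, stood at 37.8 and 14.8, 2.56-fold higher, and Derl3, a component of the degradation channel, at 31.7 and 11.8, 2.68-fold higher. Calr, the lectin chaperone calreticulin, stood at 13.3 and 7.93, 1.67-fold higher. Its membrane-bound partner Canx was the exception at 0.552 and 4.45, at least 4.24-fold lower on its only measured probe.

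Translocation and transport showed the same range. Of 22 measured genes for the translocon, the signal peptidase and glycan transfer, 18 lay above 0, with a median of 0.49 and none 4-fold apart. Rpn2, a subunit of the oligosaccharyltransferase, stood at 26.5 and 10.4, 2.55-fold higher, and the translocon protein Tram1 at 19.0 and 7.74, 2.46-fold higher. The channel subunits themselves were closer, with Sec61a1 at 24.6 and 20.1 and Sec61b at 33.8 and 22.2. Of 33 measured genes of transport between endoplasmic reticulum and Golgi, 26 lay above 0 with a median of 0.63. Kdelr3, a receptor that returns chaperones to the endoplasmic reticulum, stood at 6.42 and 1.98, 3.25-fold higher. Copb1, a subunit of the COPI coat, stood at 5.04 and 0.969, at least 4.80-fold higher. The small GTPase Sar1a, which starts COPII coats, stood at 21.4 and 8.70, 2.46-fold higher, and Arf4 at 26.0 and 10.2, 2.56-fold higher. Of these lists only Copb1 and Canx passed 4-fold with values under 1.05 raised to it. Sec24a, a COPII subunit, read 0.0745 and 1.67. It passed 4-fold only before that step and was at least 1.59-fold lower after it. The medians of the 3 lists kept their sign under all 8 alternatives run, between 0.42 and 0.95. The pineal gland arrays differed here as well, with sums of 817 and 628 for translocation and 1011 and 664 for transport. Their median over all genes was 0.43, against 0.06 for the subcommissural organ and the ependyma, so the pineal sums hold a shift of all genes. How far list medians differ between 2 arrays of one tissue beyond such a shift was not tested.

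**Figure D2:**
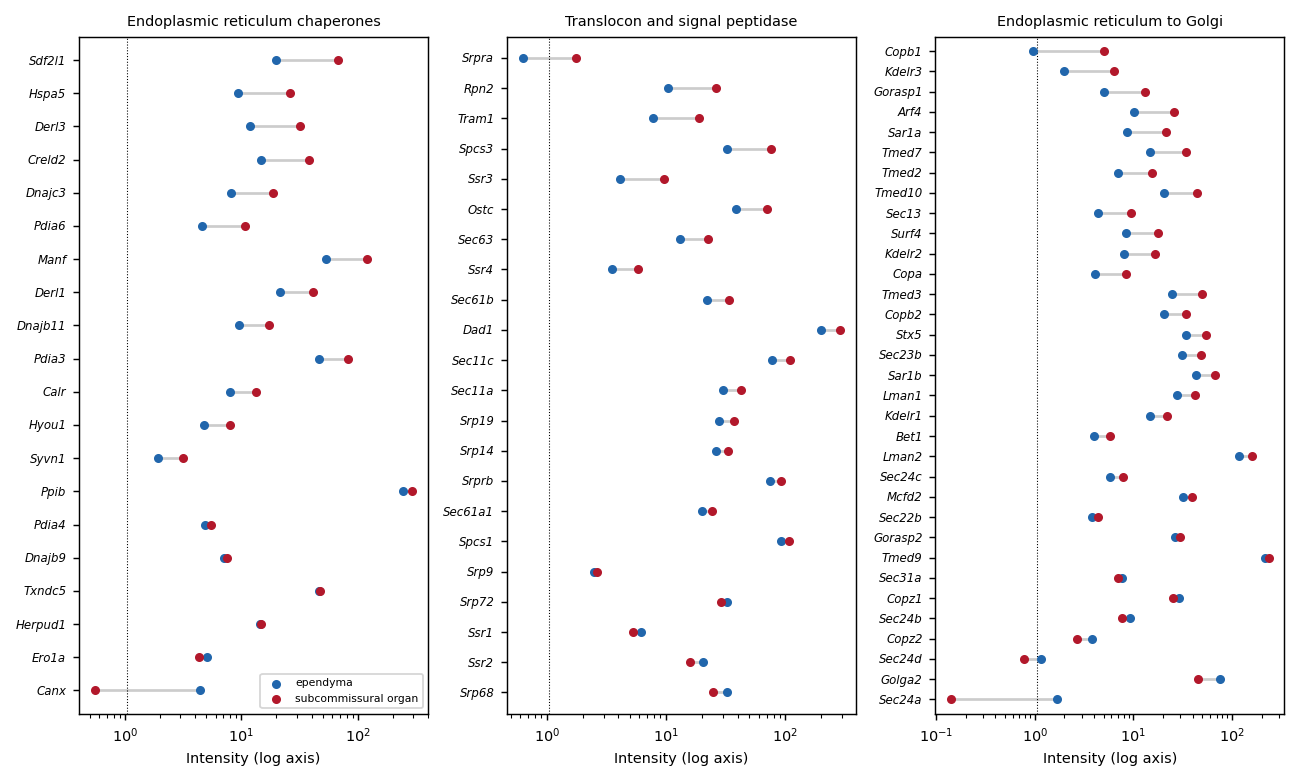
Intensity (log axis) of the measured genes of 3 lists in the ependyma (blue) and the subcommissural organ (red), ordered by their difference. The dotted line is the pooled median of 1.05. Red lies to the right for 18 of 20 chaperones, 18 of 22 translocation genes and 26 of 33 transport genes.

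The promoters of these genes are shown because chaperone genes are textbook targets of the unfolded protein response. The ER stress element is made of CCAAT and CCACG with 9 bases of any kind between them, its second part alone is CCACG, and the UPR element is TGACGTGG, whose last bases read CGTGG and so overlap the reverse complement of CCACG. Both strands of the 250 bases before the start were searched in RefSeq promoters of the rat assembly GRCr8. Among measured genes, 15 of 20 chaperones had a promoter in that table, and 20 of 22, 27 of 33 and 13 of 14 genes of the translocation, transport and regulator lists. The following stretches hold the ER stress element, in capitals, in the orientation of the gene.
Hspa5, chr3:38452933-38453015, plus strand: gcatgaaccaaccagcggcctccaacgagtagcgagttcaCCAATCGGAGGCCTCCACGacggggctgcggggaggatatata
Dnajc3, chr15:102432494-102432592, plus strand: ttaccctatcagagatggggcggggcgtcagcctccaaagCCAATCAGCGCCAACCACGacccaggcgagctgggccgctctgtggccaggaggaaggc
Creld2, chr7:121789199-121789297, plus strand: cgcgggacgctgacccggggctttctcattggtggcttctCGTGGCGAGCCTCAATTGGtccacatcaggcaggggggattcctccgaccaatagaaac
Derl3, chr20:12766561-12766659, minus strand: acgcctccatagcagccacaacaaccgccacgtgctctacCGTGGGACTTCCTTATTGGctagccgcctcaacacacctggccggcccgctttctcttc
Calr, chr19:40213117-40213193, plus strand: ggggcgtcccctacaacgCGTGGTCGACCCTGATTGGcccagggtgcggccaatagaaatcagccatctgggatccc
Canx, chr10:35158029-35158107, minus strand: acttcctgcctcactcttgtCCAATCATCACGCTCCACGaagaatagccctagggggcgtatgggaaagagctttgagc

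The element was found in 6 of the 16 chaperone promoters (37.5%), against 22 of 33469 promoters in the table (0.0657%) and 14 of 7836 promoters of measured genes (0.179%). It was read as written in Hspa5, Dnajc3 and Canx and as its reverse complement in Creld2, Derl3 and Calr. In Hspa5 it lay from 43 to 25 bases before the start, in Calr from 232 to 214 and in Canx from 230 to 212. Of the 6 genes, 5 were higher in the subcommissural organ, with log2 differences of 1.49 for Hspa5, 1.42 for Derl3, 1.36 for Creld2, 1.22 for Dnajc3 and 0.74 for Calr. Canx carried the same element and was lower, at -3.01, or -2.08 with values under 1.05 raised to it. The median was 1.29 over these 6 genes and 0.27 over the 9 chaperone genes without the element, all 9 of which lay above 0. The ranges overlapped, from -3.01 to 1.49 with the element and from 0.02 to 1.76 without it. The value of 1.76, the highest, belonged to Sdf2l1. No promoter of the translocation, transport or regulator lists held the element. The short CCACG was common, found in 27.2% of all promoters and 14 of 16 chaperone promoters.

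The UPR element marked other genes. It is in capitals in the following stretches, as written in Arf4 and Hyou1 and as its reverse complement in the others.
Kdelr3, chr7:112959491-112959578, plus strand: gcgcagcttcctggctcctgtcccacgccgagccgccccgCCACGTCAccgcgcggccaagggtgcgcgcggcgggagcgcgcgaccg
Arf4, chr16:1903387-1903435, plus strand: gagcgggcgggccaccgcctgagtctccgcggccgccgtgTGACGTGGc
Copb2, chr8:108040637-108040686, plus strand: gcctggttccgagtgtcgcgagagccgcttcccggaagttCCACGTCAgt
Stx5, chr1:215066473-215066531, plus strand: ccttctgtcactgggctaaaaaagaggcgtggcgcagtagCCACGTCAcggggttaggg
Hyou1, chr8:53602651-53602738, plus strand: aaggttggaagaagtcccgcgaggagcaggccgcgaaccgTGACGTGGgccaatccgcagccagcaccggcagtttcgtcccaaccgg
Srp19, chr18:26205693-26205780, plus strand: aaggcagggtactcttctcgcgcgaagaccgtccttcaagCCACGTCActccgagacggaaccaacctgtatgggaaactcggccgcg

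It was found in 4 of 27 transport promoters (14.8%), 1 of 16 chaperone promoters and 1 of 20 translocation promoters, against 0.520% of all promoters and 0.766% of those of measured genes. The transport genes Kdelr3, Arf4, Copb2 and Stx5 were all higher, with log2 differences of 1.70, 1.36, 0.74 and 0.69. The chaperone gene Hyou1 had a difference of 0.73 and the translocation gene Srp19 one of 0.43. The median of the 4 transport genes was 1.05, against 0.59 for the 23 without the element, of which 17 lay above 0. The differences ran from 0.69 to 1.70 with the element and from -3.55 to 2.38 without it. The value of -3.55 belonged to Sec24a, which was at -0.66 with values under 1.05 raised to it. These matches describe letters in a window, not binding.

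Receptors were also among the leading genes. Gfra1, the co-receptor through which cells bind the neurotrophic factor GDNF, stood at 361 in the subcommissural organ and 6.92 in the ependyma, 52.2-fold higher. Both other probes of Gfra1 were also higher, at 113 against 2.02 and 3.96 against 0.316. The other receptors of this family were looked up after their values were seen. Gfra3 stood at 9.16 and 1.76, 5.20-fold higher, and Gfra2 at 8.05 and 18.8, 2.34-fold lower. Ret, the signalling kinase they share, was dim at 2.77 and 0.842, at least 2.63-fold higher, with another probe on the opposite side. Vipr2, a receptor for vasoactive intestinal peptide, stood at 35.8 and 2.09, 17.2-fold higher. The fibroblast growth factor receptor Fgfr2 stood at 34.1 and 5.53, 6.17-fold higher. Of the 25 measured genes of Wnt, BMP and FGF signalling, 2 were 4-fold higher and 4 lower, against 4.91% and 7.85% of all genes, and 1 and 1 with values under 1.05 raised to it. Their median was 0.03, and its sign changed in 2 of 8 alternatives.

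Potassium channel genes lay far out on both sides. Kcnj13, an inward rectifier of transporting epithelia, stood at 28.5 and 0.349, at least 27.1-fold higher. Kcne2, an accessory subunit of epithelial potassium channels, stood at 29.1 and 0.495, at least 27.7-fold higher, and was higher still in the pineal gland at 58.5 and 34.8. In contrast Kcnd3, an A-type channel of neurons, stood at 0.851 and 31.3, at least 29.8-fold lower, and a second measured probe read 1.37 and 11.8. Kcnk2, a leak channel, was at least 7.39-fold lower at 0.344 and 7.76. Of 15 measured potassium channel genes, 3 were 4-fold higher and 3 lower, against 4.91% and 7.85% of all genes. Their median was -0.79 and below 0 under all 8 alternatives. Among ion pumps and transporters none of 23 was 4-fold higher and 4 were lower, with a median of -0.80 that was also below 0 under all 8. Atp2b2, a calcium pump of neurons and hair cells, stood at 4.54 and 53.2, 11.7-fold lower, and Atp2c2, a calcium pump of the secretory pathway, at 5.53 and 52.9, 9.58-fold lower. Atp2c2 was at most 0.843 on the subfornical, pineal and total brain arrays.

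**Figure D3:**
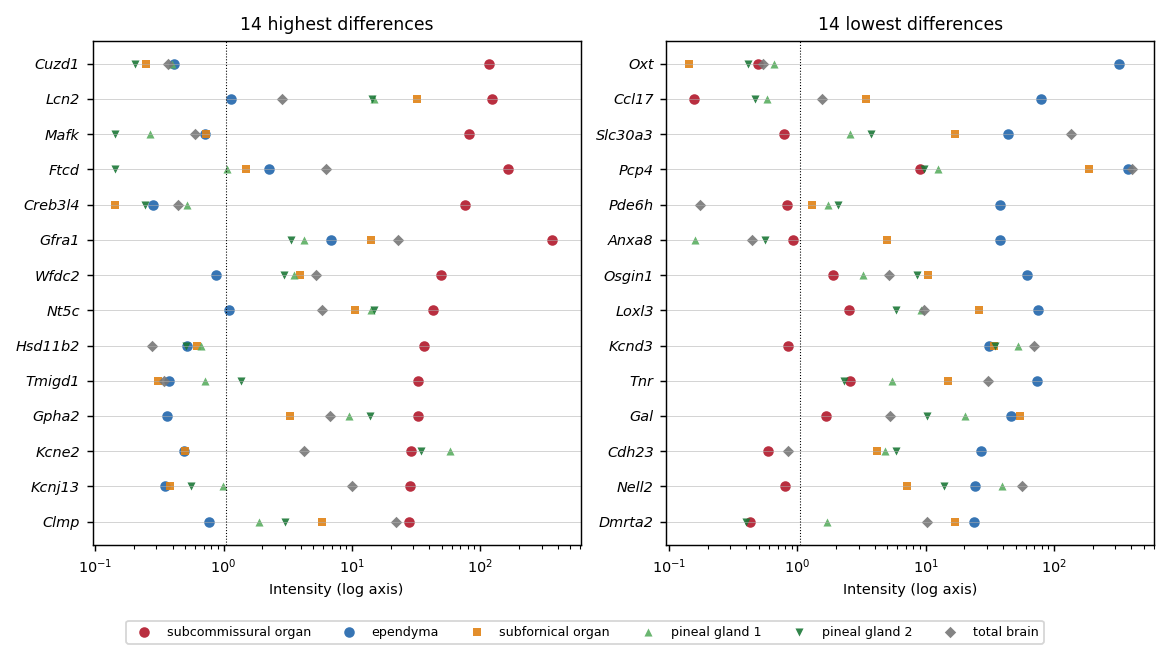
Intensity (log axis) on all 6 arrays for the 14 genes with the highest and the 14 with the lowest differences between subcommissural organ (red circle) and ependyma (blue circle). The dotted line is the pooled median of 1.05. Cuzd1, Mafk, Creb3l4 and Hsd11b2 are above that line on the subcommissural array alone, while Kcne2 is higher in the pineal gland and Slc30a3 in total brain.

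The developmental factors of the dorsal midline were among the higher genes. Pax6, a paired-box factor that the organ needs to form, stood at 26.7 and 1.47, 18.2-fold higher. The zinc finger factor Zic4 stood at 111 and 6.10, also 18.2-fold higher, and a second Zic4 probe read 2.41 and 0.209. Otx2, a homeobox factor of the forebrain roof, stood at 124 and 23.7, 5.24-fold higher, with 214 and 140 in the pineal gland. Msx1, a homeobox factor of the roof plate, did not separate the arrays at 241 and 204, and stood between 12.9 and 35.1 on the other arrays. Bmp6, a secreted signal, was 5.57-fold lower at 2.45 and 13.6. Of 12 measured genes in this list, 4 were 4-fold higher and 1 lower, against 4.91% and 7.85% of all genes, and the median was 1.34, or 0.32 when values under 1.05 were raised to it. The intermediate filament genes of immature and tanycyte-like cells differed from each other. Nes, encoding nestin, stood at 29.1 and 1.94, 15.0-fold higher, with a second probe at 7.02 and 0.216, while Vim, encoding vimentin, stood at 377 and 334.

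Epithelial genes were split. Hsd11b2, which inactivates glucocorticoids in salt-transporting epithelia, stood at 36.6 and 0.514, at least 34.8-fold higher, with a second probe at 2.53 and 0.112. Epcam, an epithelial adhesion molecule, stood at 9.43 and 0.625, at least 8.98-fold higher, and Cldn3, a tight junction claudin, at 3.75 and 0.309, at least 3.57-fold higher. Tjp1, the junction scaffold ZO-1, stood at 26.5 and 7.77, 3.41-fold higher. Other junction and keratin genes were higher in the ependyma. Itgb4, the integrin of hemidesmosomes, stood at 4.48 and 61.9, 13.8-fold lower in the subcommissural organ, and a second probe read 1.23 and 24.5. The scaffold Tjp3 stood at 7.06 and 48.9, 6.92-fold lower, and Krt8, a keratin of simple epithelia, at 11.9 and 56.2, 4.71-fold lower. Of 15 measured genes 3 were 4-fold higher and 4 lower, against 4.91% and 7.85% of all genes, and the sign of their median, 0.32, changed in 1 of 8 alternatives. Cadherins, chosen after their values were seen, were split too. Cdh11 stood at 58.9 and 3.15, 18.7-fold higher, and Cdh23, a cadherin of hair cell tip links, at 0.587 and 27.1, at least 25.8-fold lower.

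Gap junction and water channel genes lay together on the other side. All 12 measured members were lower in the subcommissural organ, 4 of them at least 4-fold, where 7.85% of all genes were. With values under 1.05 raised to it, 3 were 4-fold lower. The median of -1.08 stayed below 0 under all 8 alternatives. After Gja1, Panx2, a pannexin channel, stood at 5.87 and 30.1, 5.13-fold lower, and Gjb6, the astrocyte connexin 30, at 3.91 and 18.7, 4.78-fold lower. Aqp4, the water channel of ependyma and astrocytes, stood at 42.0 and 104, 2.48-fold lower. Aqp11 was dim at 0.735 and 3.83, at least 3.65-fold lower. The oligodendrocyte connexin Gjb1 was at 1.58 and 2.11.

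The ciliary programme was nearly level. Of 22 measured motile cilia genes, 21 were within 4-fold, with a median of -0.17 that changed sign in 1 of 8 alternatives. Summed over the list, the intensity was 3768 in the subcommissural organ and 4231 in the ependyma, against 1008.5 in the subfornical organ and 63.9 and 79.6 in the pineal gland. Dynlrb2, a dynein light chain, stood at 489.9 and 574, and Tekt1, a tektin of the axoneme, at 192 and 233. Ccdc33 was the exception at 7.76 and 61.8, 7.96-fold lower. The probe for Foxj1, the master factor of motile cilia, was under 1.05 on all arrays and so was not measured. None of 22 intraflagellar transport genes was 4-fold apart, with a median of 0.17. Ift20, which carries cargo from the Golgi, stood at 52.6 and 44.3, and Ift22 at 90.3 and 56.3.

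**Figure D4:**
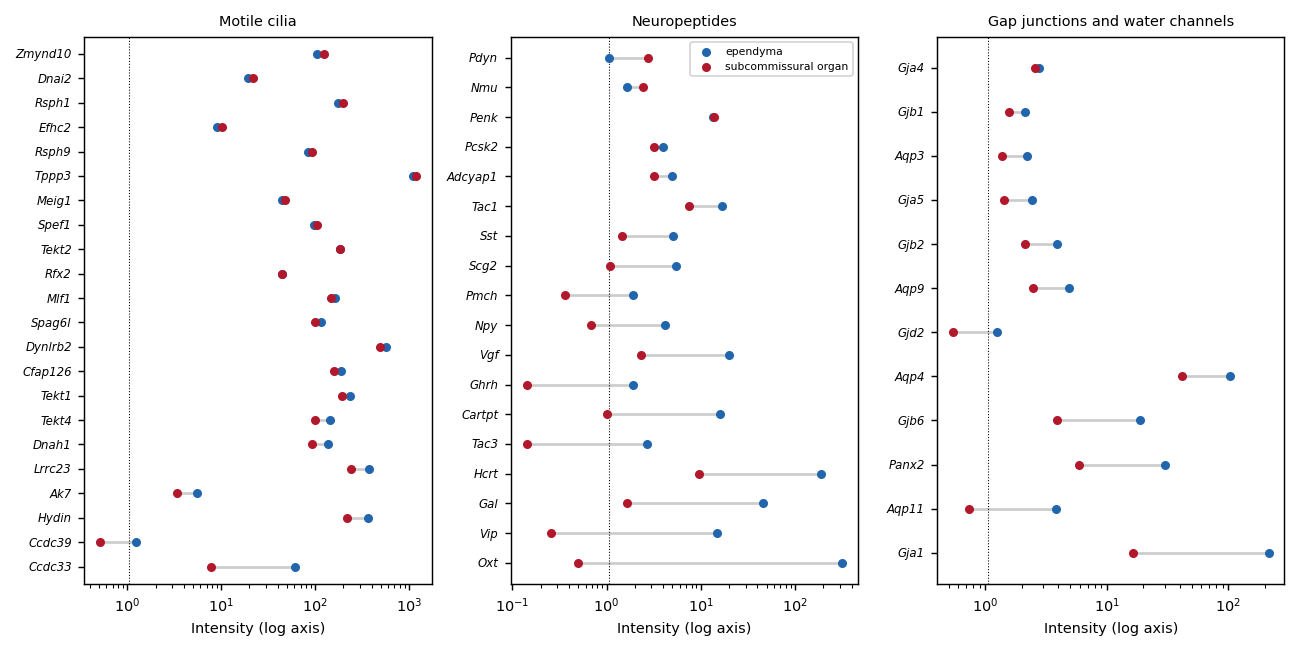
Intensity (log axis) of measured genes in the ependyma (blue) and the subcommissural organ (red), ordered by their difference. Apart from Ccdc33 and Ccdc39, cilia genes lie within 1.66-fold, 11 of 18 neuropeptide genes are at least 4-fold lower in the subcommissural organ (7 with values under 1.05 raised to it), and all 12 gap junction and water channel genes lie lower there.

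Neuropeptides of the hypothalamus were among the genes higher in the ependyma. Oxt, which encodes oxytocin, stood at 317 in the ependyma and 0.496 in the subcommissural organ, at least 302-fold lower in the latter. No other array read above 1.05 for it, with values between 0.0269 and 0.654. Hcrt, which encodes orexin, stood at 9.68 and 188, 19.4-fold lower, and the peptide gene Gal at 1.67 and 45.8, 27.5-fold lower. Cartpt, a peptide of feeding circuits, stood at 1.02 and 15.9, at least 15.2-fold lower. Of 18 measured peptide genes 11 were 4-fold lower, where 7.85% of all genes were, and none higher, with a median of -2.51. With values under 1.05 raised to it, 7 were 4-fold lower and the median was -1.58. Pdyn, the dynorphin precursor, was on the other side at 2.78 and 1.06, 2.63-fold higher. The peptide genes summed to 53.8 in the subcommissural organ and 667 in the ependyma, and to between 143 and 266 elsewhere.

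Most markers of neurons, astrocytes, and microglia and macrophages were higher on the ependyma array as well. For reading the counts, 7.85% of all measured genes were 4-fold lower in the subcommissural organ. Of 15 measured neuron genes 9 were 4-fold lower and none higher, with a median of -2.31. The 2 neuron genes on the other side were Uchl1 at 122 and 90.3 and Grin1 at 39.7 and 26.4. Thy1, a neuronal surface protein, stood at 11.9 and 72.0, 6.03-fold lower, and the growth-associated gene Stmn2 at 1.003 and 14.5, at least 13.8-fold lower. The neuron list summed to 232 and 493, against 1891 in total brain, and Stmn3, Nefm and Slc32a1 were under 1.05 in the subcommissural organ. Camk2a, a neuronal kinase, read 0.203 and 5.72 on the probe used and 1.27 and 0.647 on another, on the opposite side. Of 14 astrocyte genes 6 were 4-fold lower, with Gfap, the astrocyte filament, at 9.59 and 39.3, and Aldh1l1, a folate enzyme of astrocytes, at 2.46 and 31.1. Their sums were 339 and 1046. Of 10 microglia and macrophage genes 6 were 4-fold lower, with Tyrobp, a microglial adaptor, at 9.84 and 93.1 and the receptor Csf1r at 37.5 and 237. Their sums were 95.0 and 539. None of 13 oligodendrocyte genes was 4-fold apart, with a median of -0.22, Mog at 43.7 and 51.0 and sums of 274 and 346. Of 16 endothelium genes 1 was 4-fold higher, where 4.91% of all genes were, and 2 were lower. Their median was -0.54, with 5 above 0 and 11 below. The part of these cells in the other differences was not tested.

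Gja1, Gjb6, Aqp4 and Aldh1l1 stand on the astrocyte list too, so the same lower values are counted in both places. Which cells these values came from was not tested. In the other direction, Dcn, a matrix proteoglycan of fibroblasts, stood at 23.2 and 1.19, 19.4-fold higher, while the other 8 measured mural cell and fibroblast genes were within 4-fold. The choroid plexus marker Ttr was at 1.61 in the subcommissural organ and 4.97 in the ependyma, and F5 was under 1.05 on both. Kcne2 and Otx2, given above, are on the choroid plexus list too. Of its 9 measured genes 6 lay above 0, with a median of 0.24 that kept its sign in 6 of 8 alternatives. In it 2 were 4-fold higher and none lower, against 4.91% and 7.85% of all genes, and the sums were 787 and 551. The pineal list summed to 16.8 and 17.2, against 3098 and 2735 in the pineal gland. Of its markers, Tph1 was at 1.25 and 0.682 and Asmt under 1.05 on both, against 547 and 352 for Tph1 in the pineal gland. Sag, the retinal and pineal arrestin, was at 4.71 and 0.946, against 338 on each pineal gland array.

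Other genes higher in the ependyma were not peptides. Ccl17, a chemokine for T cells, stood at 0.155 and 79.5, at least 75.7-fold lower in the subcommissural organ, and a second probe read 0.517 and 54.0. It was at most 3.40 on the other arrays. Pde6h, a phosphodiesterase subunit known from cones, stood at 0.831 and 38.2, at least 36.3-fold lower, and was at most 2.05 elsewhere. Anxa8, a membrane-binding annexin, stood at 0.916 and 37.6, at least 35.8-fold lower. Tnr, the matrix glycoprotein tenascin-R, stood at 2.56 and 73.5, 28.7-fold lower. Several leading genes were at least as high in total brain, among them the synaptic zinc transporter Slc30a3 at 0.788 and 43.8 with 135 in total brain, and the calmodulin regulator Pcp4 at 9.07 and 377 with 406 there. Of the 25 lowest differences, 13 are given as a bound, with folds from 18.8 to 302.

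Metabolic and defence genes completed the lists. Mthfd2, a mitochondrial folate enzyme, followed Ftcd at 5.77 and 0.339, at least 5.50-fold higher, and the median of 14 folate and histidine genes was 0.01. A2m, an acute phase protease inhibitor, followed Lcn2 at 37.3 and 4.59, 8.13-fold higher. Slc22a17, a receptor for lipocalin 2, stood at 176 and 103. Of the 15 measured iron and acute phase genes 10 lay below 0, with a median of -0.40 that changed sign in 1 of 8 alternatives. Among these were the iron exporter Slc40a1 at 0.834 and 2.94 and the transferrin receptor Tfrc at 0.991 and 2.47. Of 38 genes of oxidative phosphorylation 31 lay below 0, with a median of -0.47 and none 4-fold apart. Among 20 genes of the MHC and the interferon response, Isg15 stood at 6.51 and 43.7, 6.72-fold lower, and Irf1 at 6.45 and 1.41, 4.59-fold higher, with a median of -0.87. The immediate early genes did not share a direction, with Nr4a1 at 43.1 and 3.97, 10.9-fold higher, Egr1 at 4.18 and 23.9, 5.72-fold lower, and Fos at 2.15 and 8.82, 4.11-fold lower. A second Fos probe read 3.02 and 3.39. The housekeeping genes had a median of -0.06 over 7 genes, none 4-fold apart, with Gapdh at 375 and 578 and Rplp0 at 98.5 and 39.4.

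**Figure D5:**
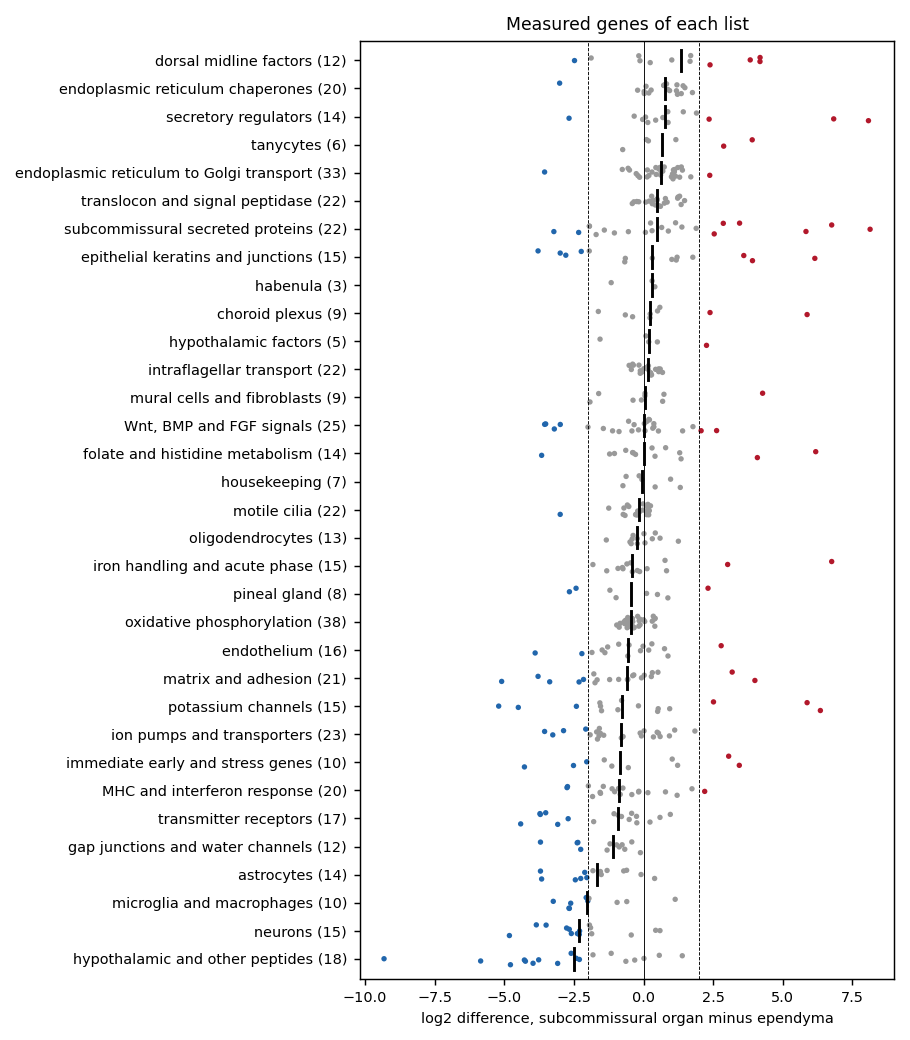
The log2 difference, subcommissural organ minus ependyma, of each measured gene (points) in 33 lists, with the number measured in brackets and the list median as a black bar. Red and blue points are at least 4-fold higher or lower (dashed lines at 2 and -2). The 3 lists of the secretory pathway have medians from 0.49 to 0.79 with few points past 4-fold, while neuropeptide, neuron and microglia genes have medians from -2.51 to -2.03.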

How the data were processed

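Tissue of adult male rats was laser-microdissected and hybridised to 6 one-colour arrays, per the labels. The deposited values are intensities as the authors processed them; the scanner, background correction and scaling are not given in the sources used here. From these intensities log2 values were made with -9999 read as missing and a floor of 0.142, the 5th percentile over all arrays. Each gene was read from its brightest probe over the 6 arrays. Probe names came from the platform annotation (165 probes had several symbols and 18099 were not listed), with 16836 gene identifiers found in RefSeq for GRCr8, and promoters came from the RefSeq table of that assembly. The array medians lay so close that no further scaling was applied. The scripts used Python 3.11.15, pandas 2.3.3, numpy 2.4.6 and matplotlib 3.10.9, and the fold counts were tested on simulated data. With 1 array a side no test was made, and the number of arrays limits the precision.

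The members, the 33 gene lists and the alternatives were chosen with earlier results of these data known. Named genes were the 4 markers, the first 3 of each list with the 4 highest and 4 lowest measured of each list with a log2 size of at least 1, and the 25 highest and 25 lowest of all genes, all ranked at the bound; from these the text gives a part. Genes outside this rule, such as Dnajc3, Hyou1, Srp19, Copb2 and Stx5 in the promoter lists and the families named as such, were chosen after their values were seen.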

Additional observations from a re-analysis of the deposited data

How the results depend on the processing

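The counts of genes at least 4-fold higher and lower, 436 and 698, were within 1.5 times without a filter, with a floor at the pooled 10th percentile, after quantile normalization, centred on the 75th percentile, with the mean of all probes and with the probe brightest over both arrays. They were 214 and 353 with a filter at the pooled 75th percentile, 187 and 323 on the scale log2(value + 1), 258 and 435 with values under 1.05 raised to it, 1309 and 1566 at 2-fold and 171 and 301 at 8-fold. Of the 115 named genes at least 4-fold apart, none changed side in 8 alternatives. The filters, the higher floor and log2(value + 1) keep the order of a gene's 2 values and so could not reverse it. That no gene changed side therefore says little about how reliable a difference is. Of the 1656 log2 differences of all 207 named genes under the 8 alternatives, 93 moved by more than 0.77, the standard deviation between the pineal gland arrays. A floor at the pooled 1st percentile was not run because that percentile was negative (-0.0359). No paired analysis was possible because each tissue compared has 1 array. Dim genes, which read near 1.05, carry the least reliable folds, and no detection call was used.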

Other observations

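Further gene families were picked by name after their values were seen and are given as values only. Of 62 measured glycosyltransferases and glycan processing enzymes, 9 were at least 4-fold higher in the subcommissural organ and 4 lower, against 4.91% and 7.85% of all measured genes, with a median log2 difference of 0.28. St6galnac2, which adds sialic acid to mucin-type glycans, stood at 26.3 and 1.08 in the ependyma, 24.3-fold higher. Galnt3, which starts such glycans, stood at 15.1 and 0.553, at least 14.3-fold higher, while its relative Galnt6 stood at 1.61 and 29.5, 18.3-fold lower. Man2a1, a Golgi mannosidase of the N-glycan pathway, stood at 29.1 and 2.47, 11.8-fold higher, and neither of its other measured probes lay on the opposite side. Mgat4a, which branches N-glycans, stood at 46.8 and 10.5, 4.47-fold higher.

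The receptor activity-modifying proteins, which set the ligand of calcitonin-type receptors, differed from each other. Ramp3 stood at 25.6 and 3.43, 7.47-fold higher, Ramp1 at 4.41 and 75.8, 17.2-fold lower, and Ramp2 at 3.91 and 17.6, 4.49-fold lower. Of 13 measured glutathione S-transferases 4 were 4-fold lower and none higher, against 7.85% and 4.91% of all measured genes, with Gstm7 at 28.2 and 149 and Gsta1 at 1.20 and 6.98. Cell division genes went both ways. Cdca7 stood at 56.2 and 4.09, 13.7-fold higher, and Tcf19 at 31.4 and 2.08, 15.1-fold higher, while the cyclin gene Ccnd2 stood at 1.06 and 18.7, 17.7-fold lower, and Top2a at 0.404 and 5.60, at least 5.33-fold lower. The zinc importer Slc39a8 stood at 10.9 and 1.72, 6.38-fold higher.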
